A study of Mus musculus with 9 samples.

Results

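Oxidative phosphorylation genes were followed in RAW264.7 cells, a mouse macrophage line, in which the gene for the transcription factor C/EBPδ, Cebpd, had been edited. The genes were chosen by symbol: protein-coding genes whose names start with Nduf, Uqcr, Cox4 to Cox8 or Atp5, together with Sdha, Sdhb, Sdhc, Sdhd, Cycs and the 13 protein genes of the mitochondrial genome. This gave 108 of the 55487 gene identifiers in the count lists, 95 of them nuclear and 13 mitochondrial. Pseudogenes and other genes that do not code for protein, 13 in number, were left out.

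The groups were unstimulated wild-type macrophages, CEBPD knock-out macrophages (edited with CRISPR/Cas9 so that the reading frame is lost) and ΔTAD macrophages, whose endogenous Cebpd lacks the transactivation domain. Each genotype has 3 libraries. The edited cells are clones, and the labels do not say which library comes from which clone, so the p-values below measure only the spread between these libraries. Both edited genotypes were compared with the same 3 wild-type libraries. RNA was depleted of ribosomal RNA and sequenced as single reads, and a library held between 16113306 and 20981829 counts on genes.

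Oxidative phosphorylation makes ATP in the inner mitochondrial membrane. Complexes I and II pass electrons from NADH and succinate to ubiquinone, complex III passes them on to cytochrome c, complex IV hands them to oxygen, and complex V, the ATP synthase, uses the proton gradient that complexes I, III and IV build up. The subunits of complexes I, III, IV and V come from both genomes, while complex II and cytochrome c are wholly nuclear. In macrophages the balance between this pathway and glycolysis is known to move with activation.

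The transcript of the edited gene itself remained in all libraries. Cebpd measured 6.11 to 7.28 CPM in wild-type, 5.21 to 5.6 in knock-out and 4.89 to 6.18 in ΔTAD libraries, where CPM are read counts scaled to a common library size. Its difference from wild-type was not called in knock-out (log2 fold change -0.26, adjusted p = 0.085) or ΔTAD macrophages (log2 fold change -0.24, adjusted p = 0.0931, quasi-likelihood test of edgeR, Benjamini-Hochberg adjustment), so the level of this transcript does not check the genotype labels. Of 9 macrophage markers 8 passed the filter on low counts, and their summed level was 3280 to 3480 CPM in wild-type, 4380 to 4750 in knock-out and 6880 to 7030 in ΔTAD libraries. The markers did not move together: Lyz2, lysozyme, had means of 1166, 2112 and 4187 CPM in this order, whereas Fcgr1, an Fc receptor, fell in both edited genotypes (-1.14 and -0.44 on the log2 scale). Of 14 markers of other cell types, 8 to 10 were at 0 in every library of a genotype, and the rest summed to 0.24 to 3.04 CPM. The library of ΔTAD replicate 1 stood apart: 11% of its counts lay on annotated nuclear ribosomal RNA genes, against 0.303% to 1.16% in the others, and 0.701% on the mitochondrial ribosomal RNAs, against 0.0372% to 0.0963%.

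Several mitochondrial genes shared their sequence with annotated nuclear genes, which bears on every value that follows. Stretches of 50 bases, the length of a read, were taken from each mitochondrial gene and looked for in all annotated transcripts of other chromosomes. All stretches of mt-Co2 were found there (100%), as were 99.9% of those of mt-Co3, 99.5% of mt-Atp6, 98.8% of mt-Nd4l, 98% of mt-Nd3, 62.2% of mt-Nd4 and 51.1% of mt-Co1. For mt-Nd2 and mt-Nd5 the share was 8.19% and 7.61%, and for mt-Nd1, mt-Nd6, mt-Cytb and mt-Atp8 it was 0. Most of the copies are pseudogenes on the minus strand of chromosome 1 between 24611535 and 24616197 (GRCm38). The pairs below show what a short read could and could not tell apart, first for mt-Co2, a catalytic core subunit of complex IV, at chrM:7013-7132, plus strand, and Gm28661 at chr1:24615446-24615565, minus strand. The second pair is mt-Nd3, a core subunit of complex I, at chrM:9459-9578 and Gm28438 at chr1:24613000-24613119. The third is mt-Co1, the other catalytic core subunit of complex IV, at chrM:6381-6500 and Gm29216 at chr1:24616078-24616197. Sequences are those of the GENCODE transcripts, 5′ to 3′, and capitals mark the bases at which a pair differs.
mt-Co2: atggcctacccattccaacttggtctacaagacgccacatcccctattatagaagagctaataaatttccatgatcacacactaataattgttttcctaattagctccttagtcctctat
Gm28661: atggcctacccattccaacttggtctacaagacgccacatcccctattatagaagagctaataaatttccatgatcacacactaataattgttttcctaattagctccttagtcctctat
mt-Nd3: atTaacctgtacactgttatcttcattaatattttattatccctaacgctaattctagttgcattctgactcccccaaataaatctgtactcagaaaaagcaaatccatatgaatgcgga
Gm28438: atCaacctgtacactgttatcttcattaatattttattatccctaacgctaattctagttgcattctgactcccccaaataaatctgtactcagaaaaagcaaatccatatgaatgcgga
mt-Co1: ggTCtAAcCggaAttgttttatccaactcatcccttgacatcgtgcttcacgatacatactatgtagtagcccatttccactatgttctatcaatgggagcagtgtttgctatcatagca
Gm29216: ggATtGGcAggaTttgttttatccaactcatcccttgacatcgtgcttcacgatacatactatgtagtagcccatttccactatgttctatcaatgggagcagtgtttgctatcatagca

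The first pair has no capitals, and the 681 aligned bases of mt-Co2 and Gm28661 were identical throughout. The second pair differed at 1 base, T3C, counted from the first base of mt-Nd3. The third differed at 6 bases near the start of the copy (T1056A, C1057T, A1059G, A1060G, C1062A and A1066T, counted from the first base of mt-Co1), which left 98.8% identity over 492 bases.

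**Figure D1:**
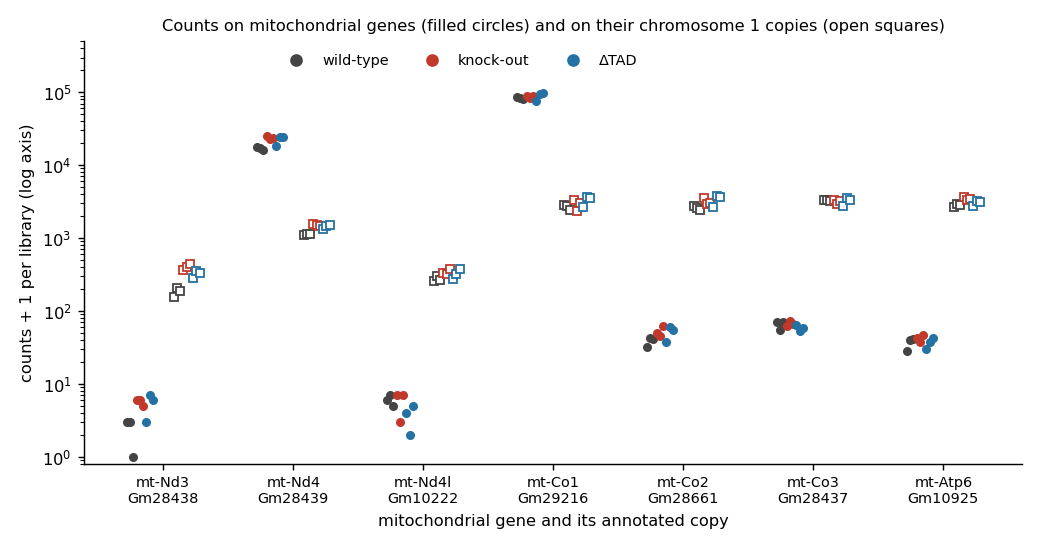
Counts per library, with 1 added, on 7 mitochondrial genes (filled circles) and on their annotated copies on chromosome 1 (open squares), coloured by genotype, on a log axis. Of these, 5 mitochondrial genes lie below their copy in every library, and mt-Nd4 and mt-Co1 lie above it.

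mt-Co2 held 31 to 61 counts per library and Gm28661 held 2460 to 3740. mt-Nd3 held 0 to 6 counts, and its copy Gm28438 held 154 to 440. mt-Co3 held 52 to 71, against 2715 to 3509 on Gm28437, and mt-Atp6 held 27 to 46, against 2702 to 3602 on Gm10925. Thus mt-Nd3, mt-Nd4l, mt-Co2, mt-Co3 and mt-Atp6 were each below the copy in all 9 libraries, as the plot of counts on genes and copies shows, whereas mt-Nd4 (16264 to 24748 counts) and mt-Co1 (75600 to 96588) were above it. Reads of such a pair cannot be told apart by sequence, so the level of these genes is uncertain. mt-Atp8, with no stretch found in annotated transcripts of other chromosomes, held 0 to 5 counts per library. Sequence outside annotated transcripts was not searched, so a copy of mt-Atp8 there would have been missed. The part of shared sequence in the counts was not tested.

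Per transcript length, the mitochondrial genes with counts of their own led all members. Averaged over the libraries, mt-Cytb stood at 3862 CPM per kb, mt-Nd1 at 3640, mt-Co1 at 3109, mt-Nd2 at 1616, mt-Nd5 at 1218, mt-Nd4 at 846.3 and mt-Nd6, the only one on the minus strand, at 402.5. The first nuclear members in this order were Atp5b (346.6) and Atp5a1 (335.8), the β and α subunits that form the catalytic head of ATP synthase, and then Cox6b1 (230.9), a subunit of complex IV. Across the 87 nuclear members that passed the filter on low counts the median was 43.8 CPM per kb, with 60 for complex V, 65 for complex IV and 10.6 for the assembly factors of complex I.

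Summed over all members, nuclear and mitochondrial genes took different orders over the genotypes. Wild-type libraries had 9653.0 ± 192.3 CPM on the 95 nuclear genes together, knock-out libraries 9147.2 ± 133.7 and ΔTAD libraries 10150.7 ± 61.7 (mean ± SD, n = 3, scaled by TMM). The 13 mitochondrial genes came to 15489 ± 1038 CPM in wild-type libraries (mean ± SD, n = 3), with a range of 14309 to 16261. They came to 19246 to 20987 CPM in knock-out and 17603 to 19696 CPM in ΔTAD libraries. Neither edited genotype overlapped with wild-type in either sum, but the nuclear order depended on the scaling: as a share of all counts, the nuclear genes took 0.969% to 1% in wild-type and 0.895% to 1.02% in ΔTAD libraries, the lowest being ΔTAD replicate 1. The ratio of mitochondrial to nuclear counts, which needs no scaling, was 1.46 to 1.72 in wild-type, 2.12 to 2.31 in knock-out and 1.73 to 1.95 in ΔTAD libraries. An exact two-sided permutation test of 3 against 3 libraries cannot go below 0.10, so these sums carry no test. In bulk RNA, fewer cells of a kind and less RNA per cell cannot be told apart.

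**Figure D2:**
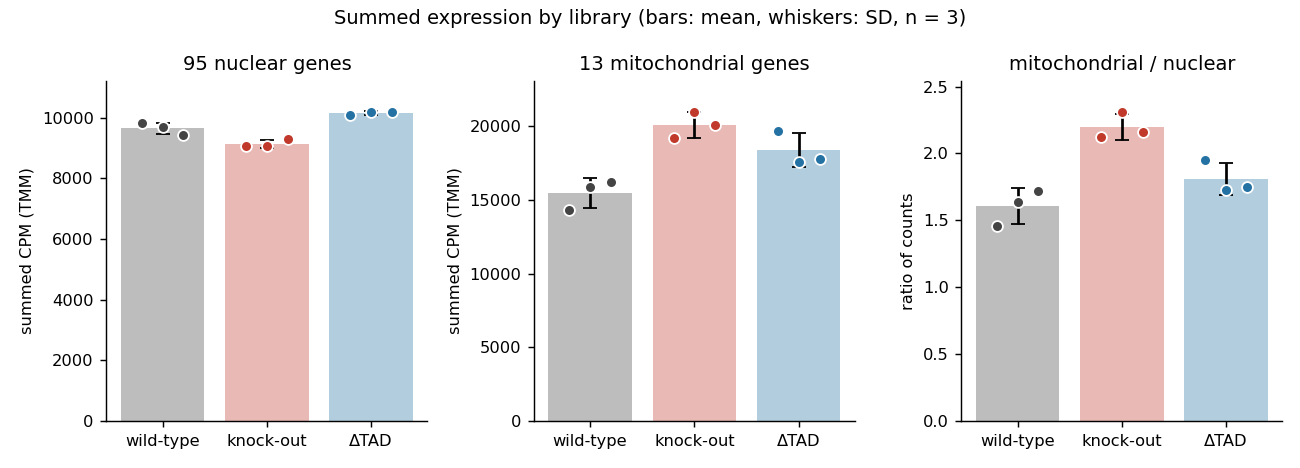
Summed CPM of the nuclear genes and of the mitochondrial genes and the ratio of their counts, for 3 libraries per genotype (points), with the mean (bars) and SD (whiskers). The ratio lies at 2.12 or above in every knock-out library and at or below 1.95 in all others.

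The complex I subunits encoded in mitochondria, which form its proton-pumping membrane arm, are given first. mt-Nd2 measured 1090, 1225 and 1260 CPM in wild-type, 2012, 2278 and 2114 in knock-out and 1838, 1649 and 1631 in ΔTAD libraries. The genotypes did not overlap, and knock-out was the highest. mt-Nd2 rose in knock-out (log2 fold change 0.84 ± 0.0468 SE, adjusted p = 1.04e-13) and in ΔTAD macrophages (0.52 ± 0.0466, adjusted p = 7.4e-10, quasi-likelihood test of edgeR, Benjamini-Hochberg adjustment, as in all adjusted p-values here). mt-Nd1 measured 2461, 2850 and 3043 CPM in wild-type, 3886, 4634 and 4112 in knock-out and 3827, 3176 and 3367 in ΔTAD libraries. It too was above wild-type in every edited library, with log2 fold changes of 0.60 (adjusted p = 8.7e-09) and 0.31 (adjusted p = 0.000106), the latter lost in DESeq2 (adjusted p = 0.0184).

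mt-Nd5 and mt-Nd4 followed the same order. mt-Nd5 measured 1653 to 1850 CPM in wild-type, 2501 to 2630 in knock-out and 2288 to 2421 in ΔTAD libraries, a log2 fold change of 0.54 (adjusted p = 1.86e-13) in knock-out and 0.41 (adjusted p = 2.8e-11) in ΔTAD macrophages. mt-Nd4 measured 888.3 to 983.8, 1303 to 1373 and 1151 to 1297 CPM, a log2 fold change of 0.50 (adjusted p = 1.11e-10) and 0.34 (adjusted p = 7.63e-08). Both rose in both edited genotypes, without overlap with wild-type.

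mt-Cytb, the mitochondrial subunit of complex III, rose less. It measured 3683, 4033 and 3998 CPM in wild-type, 4630, 4758 and 4721 in knock-out and 4811, 4595 and 4531 in ΔTAD libraries. The edited genotypes lay at one level above wild-type, with log2 fold changes of 0.27 (adjusted p = 3.58e-09) and 0.25 (adjusted p = 1.03e-08), and the difference between them was 0.02 ± 0.0262 (adjusted p = 0.615). The call in ΔTAD macrophages was lost with library size alone as the scaling (log2 fold change 0.16, adjusted p = 0.0108). With an offset for GC content and length, the log2 fold changes were 0.23 in knock-out and 0.43 in ΔTAD macrophages. Knock-out was then called lower than ΔTAD (-0.20, adjusted p = 2.61e-11).

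mt-Co1 was not called in any comparison with the main scaling. It measured 4329, 4802 and 4839 CPM in wild-type, 4722, 5086 and 5044 in knock-out and 5283, 4537 and 4592 in ΔTAD libraries, and the genotypes overlapped. Knock-out differed from wild-type by a log2 fold change of 0.09 ± 0.0418 (adjusted p = 0.0777) and ΔTAD by 0.04 ± 0.0418 (adjusted p = 0.37). With an offset for GC content and length it was called higher in ΔTAD than in wild-type (0.22, adjusted p = 5.39e-08) and lower in knock-out than in ΔTAD macrophages (-0.15, adjusted p = 4.07e-05).

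mt-Nd6, a complex I subunit read from the other strand than the rest, was lower in knock-out macrophages. It measured 199, 222.4 and 278.8 CPM in wild-type, 184.5, 218.1 and 166.3 in knock-out and 210.5, 185.2 and 215.4 in ΔTAD libraries. It was called lower in knock-out macrophages (-0.30 ± 0.0877, adjusted p = 0.00559), although the libraries overlapped, and was not called in ΔTAD macrophages (-0.20, adjusted p = 0.0578). The call was lost in DESeq2 (adjusted p = 0.111) and without wild-type replicate 3, where the log2 fold change was -0.15 (adjusted p = 0.0966). It was lost, too, without knock-out replicate 1 or 3 or wild-type replicate 2 (adjusted p = 0.0304, 0.0541 and 0.0106). With the GC and length offset the log2 fold change was -0.53 in knock-out (adjusted p = 2.26e-07) and 0.07 in ΔTAD macrophages (adjusted p = 0.395). Whether the counting used strand is not given in the sources used here, so reads of mt-Nd6 and of transcripts opposite it may not have been separated.

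**Figure D3:**
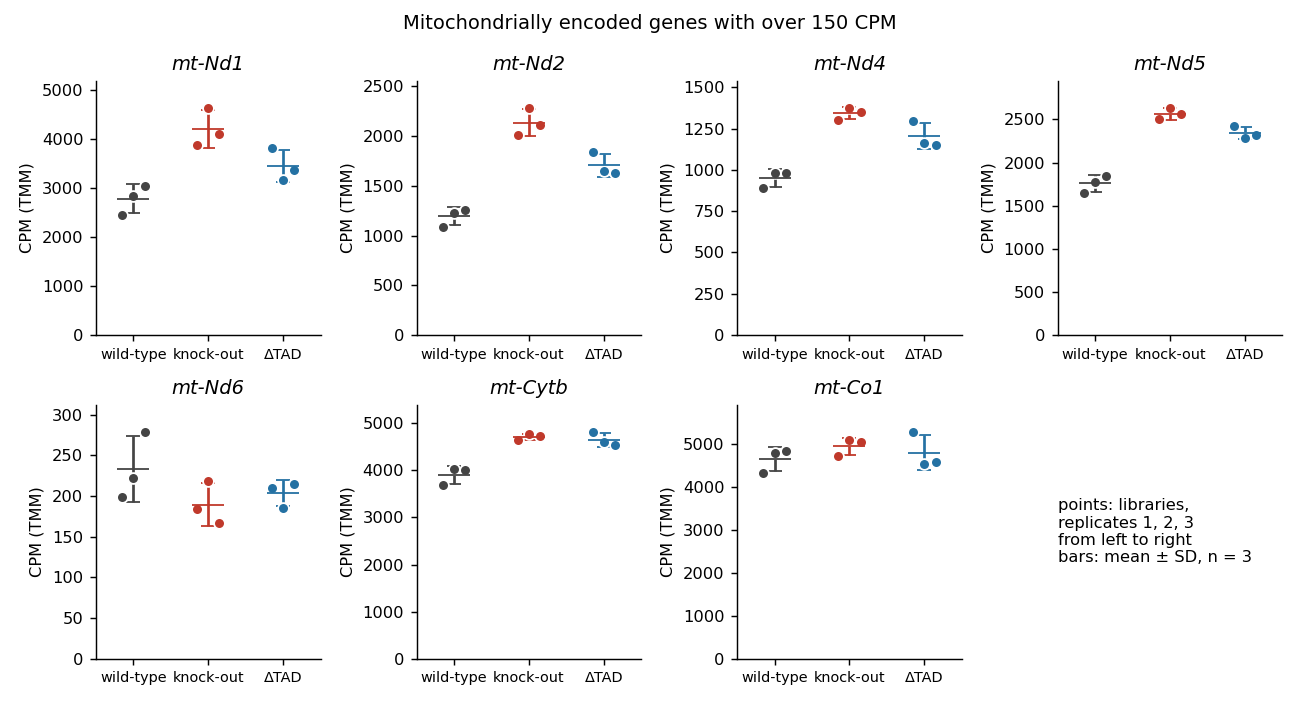
CPM scaled by TMM of the 7 mitochondrial genes with over 150 CPM, each in its own panel from 0, with 3 libraries per genotype (points) and the mean ± SD. mt-Nd1, mt-Nd2, mt-Nd4, mt-Nd5 and mt-Cytb lie above every wild-type library in all edited libraries, while the genotypes overlap for mt-Co1 and mt-Nd6.

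Of the 10 mitochondrial genes that passed the filter, 5 rose and 1 fell in knock-out, and 5 rose and 0 fell in ΔTAD macrophages, with medians of 0.36 and 0.28 on the log2 scale. Among all 14312 genes tested, 22.8% were called higher and 22.4% lower in knock-out, and 26.3% higher and 23.4% lower in ΔTAD macrophages, with a median of -0.00 in both. mt-Co2, mt-Co3 and mt-Atp6 were tested and not called (adjusted p = 0.0577, 0.845 and 0.374 in knock-out macrophages). When the counts of the chromosome 1 copy were added to each gene, an alternative chosen after seeing the data, 12 genes could be tested, and 9 rose and 1 fell in knock-out, while 7 rose in ΔTAD macrophages. The log2 fold changes in knock-out were then 1.16 for mt-Nd3 (adjusted p = 1.09e-08), 0.34 for mt-Nd4l (adjusted p = 0.00516), 0.29 for mt-Co2 (adjusted p = 2.3e-06) and 0.29 for mt-Atp6 (adjusted p = 0.00148). mt-Co3 stayed at -0.02 (adjusted p = 0.757) and mt-Co1 at 0.09 (adjusted p = 0.0656). With the copies counted, mt-Co1 and mt-Co3 of complex IV were the tested mitochondrial genes without a call in knock-out macrophages, and mt-Atp8 was not tested. The sums of mt-Nd3, mt-Nd4l, mt-Co2 and mt-Atp6 held more counts on the copy than on the gene in every library. Their calls thus rest mostly on counts of the copy.

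Knock-out against ΔTAD macrophages, mt-Nd1, mt-Nd2, mt-Nd4 and mt-Nd5 were called higher, 4 of 10, and 0 were called lower, against 13.9% higher and 19.1% lower of all genes. Their log2 fold changes were 0.28 (adjusted p = 0.000538), 0.32 (adjusted p = 5.07e-06), 0.16 (adjusted p = 0.00246) and 0.13 (adjusted p = 0.00144). This direction did not hold in every fit. When trends over GC content and transcript length were fitted per library and taken out (an offset), 0 were called higher and 5 lower, mt-Nd2 came to -0.05 (adjusted p = 0.0438) and mt-Nd4 to -0.22 (adjusted p = 9.82e-07). In DESeq2, mt-Nd1 (adjusted p = 0.0306) and mt-Nd4 (adjusted p = 0.0208) were lost, and without knock-out replicate 2 or ΔTAD replicate 2 the count of called genes was 2. Against wild-type, the same offset left 5 higher and 1 lower in knock-out and 6 higher in ΔTAD macrophages, and leaving out ΔTAD replicate 1 gave 5 higher and 1 lower in ΔTAD macrophages.

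Of the 87 nuclear members tested, 11 rose and 22 fell in knock-out macrophages, 12.6% and 25.3%, against 22.8% and 22.4% of all genes. In ΔTAD macrophages 29 rose and 8 fell, 33.3% and 9.2%, against 26.3% and 23.4%. The medians were -0.03 and 0.08. With library size alone as the scaling, ΔTAD against wild-type had 14 higher and 10 lower. Without ΔTAD replicate 1 it had 22 higher and 11 lower. With the offset for GC content and length, knock-out against wild-type had 19 higher and 17 lower.

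**Figure D4:**
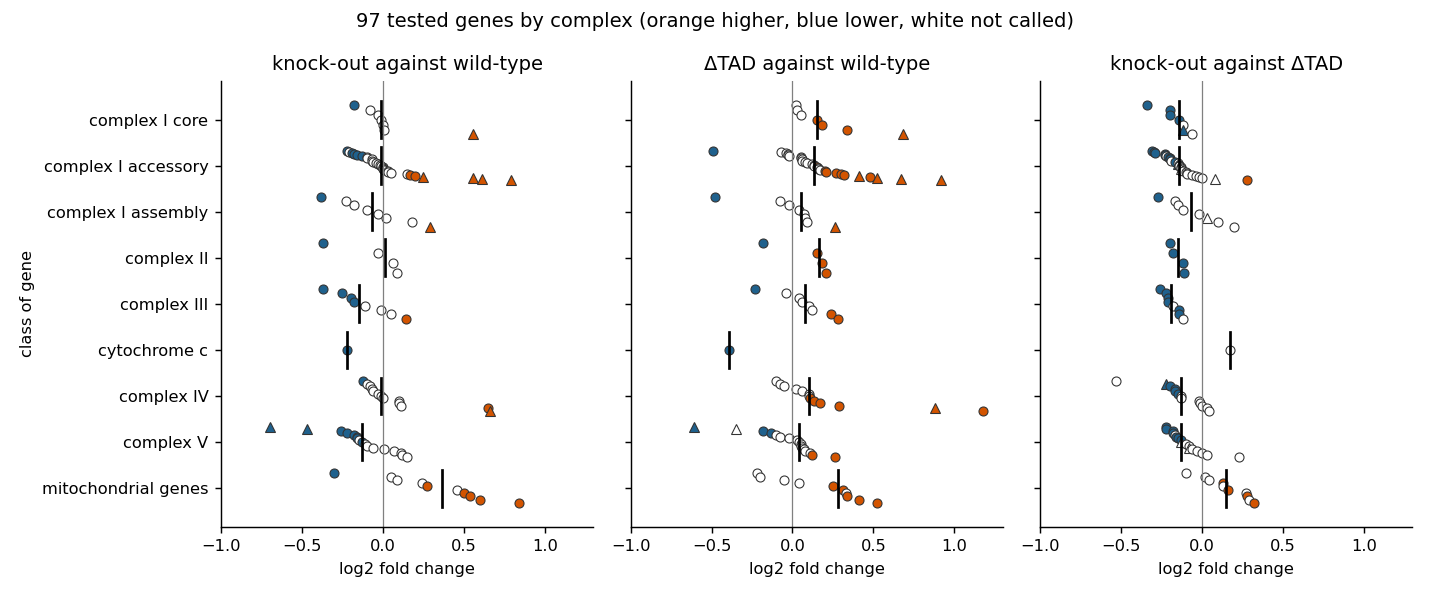
Log2 fold changes of the 97 tested members in 3 comparisons, by complex, with the median of each class (black line). Orange and blue points were called higher and lower, white points were not called, and triangles are members on chromosomes 12 and 17. In knock-out against ΔTAD macrophages, 39 of 40 called nuclear members lie to the left of 0 (3 of 6 with library size alone) and the 4 called mitochondrial genes to the right (0 of 5 with the GC and length offset).

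The edited genotypes were also compared with each other. Knock-out against ΔTAD macrophages, 39 of 87 were lower (44.8%, against 19.1% of all genes) and 1 was higher (1.15%, against 13.9%), and 74 of 87 had a negative log2 fold change, with a median of -0.14, where all genes had -0.03. The differences were small. With a required size of 0.5 on the log2 scale, 0 of them would be called. The count rested on how the libraries were scaled. With library size alone it was 3 higher and 3 lower, and with library size alone after the ribosomal RNA genes were left out, which was added after seeing the data, 1 higher and 32 lower. Without ΔTAD replicate 1 it was 3 higher and 29 lower. With chromosomes 12 and 17 left out it was 1 higher and 25 lower of 78. The median of the nuclear members stayed below that of all genes with library size alone, at -0.06 against 0.04, although fewer members were called.

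Of the 7 nuclear core subunits of complex I, which carry the flavin and the iron-sulfur clusters, 5 were lower in knock-out than in ΔTAD macrophages and 0 higher, 71.4% against 19.1% of all genes lower. Ndufs7, the subunit with the last iron-sulfur cluster of the chain, measured 57.9, 56.2 and 54.8 CPM in wild-type, 59.5, 54.2 and 55 in knock-out and 66.5, 74 and 72.3 in ΔTAD libraries. Only the ΔTAD libraries stood apart. The log2 fold change was 0.34 in ΔTAD against wild-type (adjusted p = 5.07e-07), -0.34 in knock-out against ΔTAD (adjusted p = 1.57e-06) and -0.00 in knock-out against wild-type (adjusted p = 0.984). Ndufs1, the largest subunit of the complex, also rose in ΔTAD macrophages (0.15, adjusted p = 0.00123). The call was lost with library size alone (adjusted p = 0.424) and without ΔTAD replicate 2 or wild-type replicate 3 (adjusted p = 0.0149 in each). Ndufv1, which binds NADH, fell in knock-out macrophages (-0.18, adjusted p = 0.00035) and stood at 0.02 in ΔTAD macrophages. Ndufs3 and Ndufs8 were not called in any comparison, with log2 fold changes between -0.12 and 0.05.

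Of the 29 accessory subunits of complex I, 11 rose in ΔTAD and 6 in knock-out macrophages, and 1 and 5 fell. In knock-out macrophages this was 20.7% higher and 17.2% lower, near or below the 22.8% and 22.4% of all genes. In ΔTAD macrophages it was 37.9% and 3.45%, against 26.3% and 23.4%. Both shares higher include Ndufa7, Ndufa11, Ndufb10 and Ndufv3 on chromosome 17, where the tested genes were shifted upward as a whole (described below). The median over all tested genes there was 0.48 for knock-out and 0.50 for ΔTAD against wild-type. The shares higher thus do not separate the accessory subunits from that shift. Ndufa13, also known as a regulator of cell death, measured 49.8, 50.9 and 50.1 CPM in wild-type, 57.8, 57.6 and 57.4 in knock-out and 64.9, 71.7 and 73.1 in ΔTAD libraries. The 3 genotypes did not overlap, with log2 fold changes of 0.20 (adjusted p = 0.000502, lost with library size alone at 0.0159) in knock-out and 0.48 (adjusted p = 5.63e-10) in ΔTAD macrophages. Ndufb8 (0.27, adjusted p = 5.32e-06) and Ndufs5 (0.30, adjusted p = 0.000872) rose in ΔTAD macrophages and stood at -0.04 and -0.00 in knock-out macrophages. Ndufs5 was lost with library size alone (0.21, adjusted p = 0.0425).

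Ndufab1, the mitochondrial acyl carrier protein, which also serves lipoate synthesis, was the 1 nuclear member called higher in knock-out than in ΔTAD macrophages. It measured 30.9, 29.5 and 28 CPM in wild-type, 25.6, 27.4 and 23.8 in knock-out and 20.7, 19.9 and 22.6 in ΔTAD libraries. The genotypes were apart, with the lowest values in ΔTAD (log2 fold change -0.49 against wild-type, adjusted p = 1.65e-06) and 0.28 between knock-out and ΔTAD (adjusted p = 0.00257). The latter was lost without knock-out replicate 2 (adjusted p = 0.0207) or ΔTAD replicate 2 (adjusted p = 0.0255).

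The assembly factors help to put complex I together without staying in it. Ndufaf4, which acts early in this, measured 57.4, 59.1 and 62.7 CPM in wild-type, 43.1, 47.7 and 46.8 in knock-out and 43.7, 43.6 and 41.1 in ΔTAD libraries. It fell in both, with log2 fold changes of -0.38 (adjusted p = 3.54e-07) and -0.48 (adjusted p = 7.01e-09). Ndufaf1, a factor for the membrane arm, was lower in knock-out than in ΔTAD macrophages (-0.27, adjusted p = 0.00156), a call that was lost without ΔTAD replicate 1 (-0.21, adjusted p = 0.0117), without knock-out replicate 1 (-0.24, adjusted p = 0.014) and with library size alone (-0.20, adjusted p = 0.0498). Of the 8 factors tested, 6 were not called in knock-out and 6 not in ΔTAD macrophages. The share called was 25% in each, below the 45.2% and 49.7% of all genes.

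Complex II, succinate dehydrogenase, belongs to both the respiratory chain and the citric acid cycle. Sdhd, a membrane anchor, measured 160.8, 165.7 and 168.6 CPM in wild-type, 126.9, 127 and 128.7 in knock-out and 149.9, 147.1 and 141.3 in ΔTAD libraries. It fell in both, by log2 fold changes of -0.37 (adjusted p = 1.66e-09) and -0.18 (adjusted p = 0.0001), and the genotypes did not overlap. The other 3 subunits rose in ΔTAD macrophages: the log2 fold change was 0.18 for Sdha (adjusted p = 6.44e-05), the flavoprotein, 0.15 for Sdhb (adjusted p = 0.000533), the iron-sulfur protein, and 0.21 for Sdhc (adjusted p = 6.95e-06), the other anchor. All 3 were lost with library size alone, at 0.10, 0.06 and 0.12. In knock-out macrophages they stood at 0.06, -0.03 and 0.09 and were not called. All 4 were lower in knock-out than in ΔTAD macrophages, with log2 fold changes between -0.20 and -0.11. All 4 of these calls were lost with library size alone. Those of Sdha and Sdhc were also lost in several other settings. Among these were ribosomal RNA genes left out (adjusted p = 0.0176 and 0.0331) and chromosomes 12 and 17 left out (adjusted p = 0.0237 and 0.0302). That of Sdhb was also lost with the GC and length offset (adjusted p = 0.0116).

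In complex III, 4 of 8 nuclear subunits fell and 1 rose in knock-out macrophages, and 6 of 8 were lower than in ΔTAD macrophages. Among all genes 22.4% fell and 22.8% rose in knock-out macrophages, and 19.1% were lower than in ΔTAD macrophages. Uqcrh, the hinge protein at the cytochrome c site, measured 221.6, 225.2 and 216.1 CPM in wild-type, 173.5, 165.5 and 174.1 in knock-out and 182.4, 187.8 and 195.8 in ΔTAD libraries. It fell in both edited genotypes (-0.37, adjusted p = 6.29e-09, and -0.23, adjusted p = 1.04e-05). Uqcrfs1, Uqcrc1 and Uqcrc2, the Rieske protein and the core proteins of the complex, were the other subunits that fell in knock-out macrophages, by log2 fold changes from -0.25 to -0.18. In ΔTAD macrophages these 3 stood between -0.04 and 0.06 and were not called. mt-Cytb of the same complex rose in both.

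Cycs, cytochrome c, measured 39.2, 47.7 and 41.2 CPM in wild-type, 36.2, 38.2 and 35.1 in knock-out and 33.6, 32.6 and 31.5 in ΔTAD libraries. It fell in both, more so in ΔTAD (-0.39, adjusted p = 9.94e-06) than in knock-out macrophages (-0.22, adjusted p = 0.00394), while the difference between these did not pass the threshold (0.17 ± 0.0651, adjusted p = 0.0393). The call in knock-out macrophages was lost without wild-type replicate 2, where it was -0.13 (adjusted p = 0.0791), and without knock-out replicate 1 (adjusted p = 0.0204) or 3 (adjusted p = 0.0215).

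In complex IV, 2 of 13 tested nuclear members rose and 1 fell in knock-out, and 6 rose and 0 fell in ΔTAD macrophages. The knock-out shares, 15.4% and 7.69%, were below those of all genes (22.8% and 22.4%), and the ΔTAD shares were 46.2% and 0%, against 26.3% and 23.4%. Cox7a1, the form of a small subunit that is typical of heart and skeletal muscle, was low but had the highest log2 fold change of the nuclear members in ΔTAD macrophages. It measured 1.7, 1.5 and 1.6 CPM in wild-type, 2.1, 2.7 and 2.9 in knock-out and 3.8, 3.7 and 3.6 in ΔTAD libraries. The genotypes did not overlap. The log2 fold change was 1.18 ± 0.183 in ΔTAD macrophages (adjusted p = 5.14e-06) and 0.65 ± 0.198 in knock-out macrophages (adjusted p = 0.00745), the latter lost in DESeq2 (adjusted p = 0.0247), in limma-voom (adjusted p = 0.013), with library size alone (adjusted p = 0.012) and without knock-out replicate 2 or 3, ΔTAD replicate 2 or any 1 of the wild-type replicates (log2 fold change 0.55 to 0.71). The other tissue-restricted forms were at or near 0. Cox6b2, Cox7b2, Cox8b and Cox8c held no count in any of the libraries. Cox4i2 held 0 to 6, Cox6a2 held 2 to 11 and Ndufa4l2 held 0 to 3 counts per library.

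Complex V had 8 of 17 tested members lower and 0 higher in knock-out, and 3 lower and 2 higher in ΔTAD macrophages. In knock-out macrophages 47.1% were lower, against 22.4% of all genes, while the ΔTAD shares, 17.6% lower and 11.8% higher, were below the 23.4% and 26.3% of all genes. The catalytic subunits were the most abundant nuclear members. Atp5b measured 1511, 1514 and 1461 CPM in wild-type, 1368, 1340 and 1390 in knock-out and 1525, 1577 and 1532 in ΔTAD libraries. Atp5a1 measured 1090, 1092 and 1044 in wild-type, 969.2, 944.9 and 972 in knock-out and 1097, 1150 and 1116 in ΔTAD libraries. For both, every knock-out library lay below every other library. The log2 fold changes in knock-out against wild-type were -0.13 (adjusted p = 0.00011) and -0.16 (adjusted p = 3.24e-05), and both were lost with library size alone (adjusted p = 0.041 and 0.0142).

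The nuclear members with the greatest differences from wild-type, apart from Cox7a1, lay on chromosomes 12 and 17, where the median of all tested genes was shifted. The 746 tested genes of chromosome 17 had a median log2 fold change of 0.48 for knock-out and 0.50 for ΔTAD macrophages, and the 541 of chromosome 12 had -0.52 and -0.54. On each other nuclear chromosome the median lay between -0.06 and 0.03. Whether the shift of a member is more than that of its chromosome was not tested, and the cause of the shift was not tested.

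All 7 members on chromosome 17 rose in both edited genotypes, with medians of 0.56 and 0.67, and 6 of them belong to complex I by name. Ndufv3, an accessory subunit next to the NADH site, measured 38.6, 37.3 and 38.8 CPM in wild-type, 63.7, 63.6 and 71.2 in knock-out and 68.5, 71.3 and 77.1 in ΔTAD libraries. The edited libraries were all above wild-type (0.79, adjusted p = 2.26e-12, and 0.92, adjusted p = 6.87e-14). Cox7a2l, which takes part in joining complexes III and IV into supercomplexes, rose by 0.66 and 0.88. Ndufv2, a core subunit with an iron-sulfur cluster, rose by 0.56 and 0.68 and Ndufa11 of the membrane arm by 0.56 and 0.67. Ndufa7 (0.61 and 0.52), Ndufb10 (0.25 and 0.41) and the assembly factor Ndufaf7 (0.29 and 0.26) made up the rest. Of these, Ndufaf7 was lost in ΔTAD macrophages with library size alone (adjusted p = 0.0831) and without ΔTAD replicate 3 (adjusted p = 0.0236).

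On chromosome 12, Atp5mpl, a small subunit of the membrane part of ATP synthase, measured 109.1 ± 2.96 CPM in wild-type (mean ± SD, n = 3, at most 112.4), 67.3, 65 and 69.1 in knock-out and 73.4, 72.1 and 68.6 in ΔTAD libraries. It was the nuclear member that fell the most in each comparison with wild-type (-0.70, adjusted p = 2.27e-14, and -0.61, adjusted p = 1.76e-13). Atp5s, a coupling factor of the synthase, fell in knock-out macrophages (-0.47, adjusted p = 0.00326, lost in DESeq2 with adjusted p = 0.0194 and without knock-out replicate 1 or 2 or wild-type replicate 1 or 2, with adjusted p between 0.0103 and 0.0174) and stood at -0.35 in ΔTAD macrophages (adjusted p = 0.0217). Among the 78 tested nuclear members on other chromosomes, 4 rose and 20 fell in knock-out, and 22 rose and 7 fell in ΔTAD macrophages. In knock-out macrophages this was 5.13% higher and 25.6% lower, against 22.8% and 22.4% of all genes. In ΔTAD macrophages it was 28.2% and 8.97%, against 26.3% and 23.4%. The 25.6% and the 28.2% were thus near the shares of all genes. Knock-out against ΔTAD macrophages, 1 was higher and 36 were lower, 1.28% and 46.2%, against 13.9% and 19.1%.

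**Figure D5:**
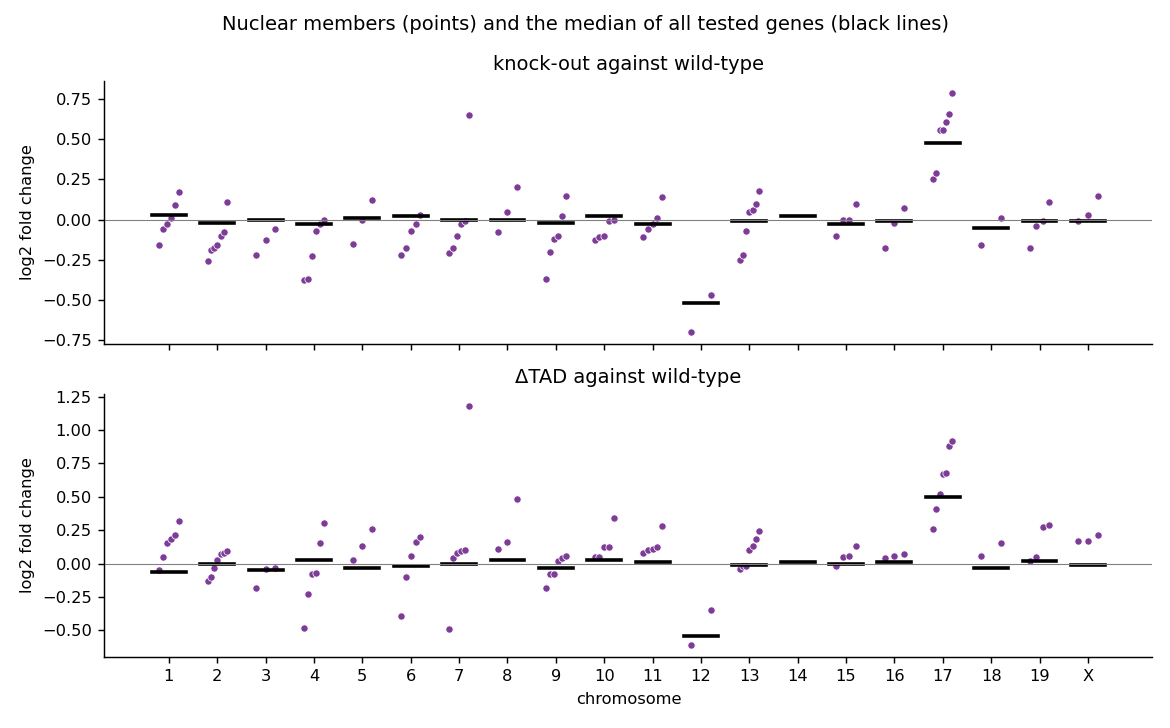
Log2 fold changes of the tested nuclear members (points) by chromosome, with the median of all tested genes of the chromosome (black line), for knock-out and ΔTAD against wild-type macrophages. The line lies at 0.48 and 0.50 on chromosome 17 and at -0.52 and -0.54 on chromosome 12, and the members there lie around it.

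The promoters of the nuclear members are known to carry sites of shared factors, among them NRF1 and ETS factors. Windows of 300 bases around the start (RefSeq, GRCm38.p6) were at hand for 77 of the 95 nuclear members, 82 windows in all, and were searched on both strands for GCGCA, any base and then GCGC (NRF1), CCGGAAG (ETS), AANATGGCG (YY1), CCAAT (NF-Y) and TTGCNNCAA (C/EBP). No matches of different motifs overlapped in these windows. The NRF1 letters were in 24.4% of the member windows and in 4.6% of all 32851 windows, those of ETS in 22% and 8.86% and those of YY1 in 13.4% and 2.38%. CCAAT was in 43.9% and 37.4%, and the C/EBP letters in 1.22% (1 window, that of Uqcr10, a small subunit of complex III, named after its value was seen) and 2.08%. The GC content was 58% in member windows and 53.8% in all. A window of a member lower in knock-out than in ΔTAD macrophages held the NRF1 letters in 11 of 34 cases and a window of another tested member in 9 of 45.

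Windows of members described above are shown with the matches in capitals. Sdhd (chr9:50603800-50604099, minus strand), which fell in both edited genotypes, held a match each for NRF1 and ETS. Ndufaf4 (chr4:24897833-24898132, plus strand), which also fell in both, held 1 for NRF1. Ndufs7 (chr10:80249199-80249498, plus strand), which rose in ΔTAD macrophages, held 1 for YY1. Cox7a1 (chr7:30183921-30184220, plus strand), with the highest log2 fold change in ΔTAD macrophages, held 2 for NF-Y and no other.
Sdhd: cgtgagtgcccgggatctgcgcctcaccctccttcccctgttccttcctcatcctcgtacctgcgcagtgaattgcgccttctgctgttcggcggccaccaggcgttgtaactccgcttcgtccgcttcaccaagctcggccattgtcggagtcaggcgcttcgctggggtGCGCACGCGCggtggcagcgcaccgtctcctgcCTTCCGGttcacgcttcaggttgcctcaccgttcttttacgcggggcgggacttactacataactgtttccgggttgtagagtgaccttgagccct
Ndufaf4: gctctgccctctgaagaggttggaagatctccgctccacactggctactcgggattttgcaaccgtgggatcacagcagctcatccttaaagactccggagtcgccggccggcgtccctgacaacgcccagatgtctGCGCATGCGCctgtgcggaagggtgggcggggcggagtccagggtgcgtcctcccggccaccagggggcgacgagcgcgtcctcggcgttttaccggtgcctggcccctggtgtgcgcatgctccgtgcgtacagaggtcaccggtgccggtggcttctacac
Ndufs7: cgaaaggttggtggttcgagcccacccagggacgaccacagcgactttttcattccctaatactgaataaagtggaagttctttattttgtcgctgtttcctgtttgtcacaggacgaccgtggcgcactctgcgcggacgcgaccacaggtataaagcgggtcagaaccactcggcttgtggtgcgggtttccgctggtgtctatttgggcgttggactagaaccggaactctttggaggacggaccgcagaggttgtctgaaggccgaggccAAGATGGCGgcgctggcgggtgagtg
Cox7a1: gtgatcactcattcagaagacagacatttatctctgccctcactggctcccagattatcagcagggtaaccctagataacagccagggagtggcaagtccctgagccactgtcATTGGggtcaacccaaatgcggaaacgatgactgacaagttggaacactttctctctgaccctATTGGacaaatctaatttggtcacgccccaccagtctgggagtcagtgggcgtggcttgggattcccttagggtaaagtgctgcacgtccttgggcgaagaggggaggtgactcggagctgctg

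Genes around the pathway were counted from lists by function. Of 48 tested assembly factors and other chain genes outside the symbol rule, 4 rose and 16 fell in knock-out, 7 rose and 5 fell in ΔTAD macrophages, and 2 were higher and 19 lower in knock-out than in ΔTAD macrophages. The shares lower were 33.3%, 10.4% and 39.6%, against 22.4%, 23.4% and 19.1% of all genes, and the shares higher were 8.33%, 14.6% and 4.17%, against 22.8%, 26.3% and 13.9%. The counts of knock-out against ΔTAD use the scaling on which the count of the nuclear members depended. Cox20, an assembly factor of complex IV, rose in both edited genotypes (0.36, adjusted p = 0.00275, and 0.53, adjusted p = 3.8e-05). Etfb, a subunit of the flavoprotein that brings electrons from fatty acid oxidation, fell in knock-out macrophages (-0.45, adjusted p = 1.93e-05), and Cox17, a copper chaperone of complex IV, fell in ΔTAD macrophages (-0.53, adjusted p = 2.61e-08).

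Of 29 tested genes for the expression of the mitochondrial genome, 2 rose and 11 fell in knock-out and 5 rose and 8 fell in ΔTAD macrophages. In knock-out macrophages 37.9% fell and 6.9% rose, against 22.4% and 22.8% of all genes, and in ΔTAD macrophages 27.6% fell, near the 23.4% of all genes, and 17.2% rose, against 26.3%. The top and bottom of this list lay on the shifted chromosomes. Slirp on chromosome 12 fell in both (-0.77 and -0.71), and its partner Lrpprc on chromosome 17, with which it binds and stabilizes mitochondrial messenger RNA, rose in both (0.32 and 0.37), as did Tfb1m on chromosome 17 (0.44 and 0.36), which methylates mitochondrial ribosomal RNA.

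The proteins of the mitochondrial ribosome, which translates the 13 mitochondrial messages, were counted in the same way. Of 77 tested, 6 rose and 37 fell in knock-out, 18 rose and 11 fell in ΔTAD macrophages, and 0 were higher and 49 lower in knock-out than in ΔTAD macrophages, with a median of -0.21. The shares lower were 48.1%, 14.3% and 63.6%, against 22.4%, 23.4% and 19.1% of all genes. The shares higher were 7.79%, 23.4% and 0%, against 22.8%, 26.3% and 13.9%, so the share that rose in ΔTAD macrophages was near that of all genes. Mrps6 stood lowest, at -0.98 in knock-out (adjusted p = 6.59e-15) and -0.44 in ΔTAD macrophages (adjusted p = 5.49e-09). The comparison with ΔTAD uses the scaling on which the count of the nuclear members depended.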

How the data were processed

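The authors depleted ribosomal RNA, sequenced 50-base single reads, trimmed them with Trimmomatic, used Hisat2 for alignment to GRCm38 and HTSeq for the counting on Ensembl genes. The counts they deposited, 1 list per library, are whole numbers without normalization or filter. Strand and mode of the counting are not given in the sources used here. Genes held 46.65% to 53.23% of a library's records, and the 5 tally lines were left out.

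The counts were fitted with edgeR 4.0.16 in R 4.3.3, all 9 libraries in 1 quasi-likelihood model of the 3 genotypes, scaled by TMM, on the 14312 genes that filterByExpr kept (minimum count 10, minimum total 15). A gene was called when its p-value, adjusted by Benjamini-Hochberg over all genes tested, was under 0.01, the study's threshold. Standard errors were derived from the F statistic (fold change on the log2 scale over its square root). CPM are scaled by TMM. Members and lists were chosen with earlier results of these data known. Named were Cebpd, the mitochondrial genes, Sdha to Sdhd, Cycs, the core subunits of complex I, the 5 highest and 5 lowest called nuclear members in each comparison, tissue-restricted forms, members on chromosomes 12 and 17, the 3 most abundant nuclear members, and 2 called genes at each end of every other list. Uqcrfs1, Uqcrc1, Uqcrc2 and Uqcr10 were named after their values were seen. One gene that the rule names is not reported here.

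Other settings tried were limma-voom (limma 3.58.1), DESeq2 1.42.0, other scalings and filters, fits of 2 genotypes, an offset for transcript length and GC content, the replicate number as a block, leaving out chromosomes or libraries, an adjusted p under 0.05 and a log2 fold change of 0.5 or more in size. Added after seeing the data were fits without ribosomal RNA genes, with TMM or library size alone, and the sum of gene and chromosome 1 copy. On simulated counts for knock-out against wild-type (14095 genes), 90% of 2-fold and 77% of 1.5-fold changes were called, with 1 false call. The simulation gave all genes the same dispersion and changed 100 genes by each fold. It held no library like ΔTAD replicate 1, so it does not measure the error in these data. Python 3.11.15 was used for tables and figures.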

Additional observations from a re-analysis of the deposited data

How the results depend on the processing

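Of 75 called values of named members, 39 kept their call under every alternative other than the fold threshold and 36 lost it under at least 1. Library size alone as the scaling lost 27, DESeq2 8, the GC and length offset 8 and the ribosomal RNA genes left out 5. With library size alone, called nuclear members numbered 24 for ΔTAD against wild-type and 6 for knock-out against ΔTAD, and the summed nuclear CPM was 9893.0 in wild-type and 9781.4 in ΔTAD macrophages. Leaving out chromosomes 12 and 17 gave 26 for knock-out against ΔTAD. Removal of ribosomal RNA genes, chosen after seeing the data, gave 33 for knock-out against ΔTAD with library size alone. The cause of these differences was not tested. With a log2 fold change of 0.5 or more in size required, 7 nuclear members were called in knock-out and 7 in ΔTAD against wild-type and 0 in knock-out against ΔTAD. Of the mitochondrial genes, 3, 1 and 0 were then called. Adding the chromosome 1 copies gave 10 called mitochondrial genes in knock-out against wild-type, and DESeq2 gave 2 in knock-out against ΔTAD.

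The median log2 fold change of nuclear minus mitochondrial members was -0.40 in knock-out and -0.20 in ΔTAD against wild-type and -0.28 in knock-out against ΔTAD. It was -0.31 in knock-out with every gene of at least 1 count kept. With the GC and length offset it was -0.27, -0.38 and 0.04, so the last reversed. With that offset mt-Co1 stood at -0.15, mt-Cytb at -0.20, mt-Nd4 at -0.22 and mt-Nd5 at -0.19 in knock-out against ΔTAD, all called lower. mt-Nd2 stood at -0.05 (adjusted p = 0.0438), mt-Nd1 at -0.00 (adjusted p = 0.965) and mt-Co3 at 0.03 (adjusted p = 0.917), none of them called, and mt-Nd6 at -0.59 (adjusted p = 1.17e-07). The cause was not tested.

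Leaving out each library in turn, called nuclear members ranged from 27 to 35 in knock-out, from 30 to 38 in ΔTAD against wild-type and from 26 (without knock-out replicate 2) to 41 in knock-out against ΔTAD. Called mitochondrial genes ranged from 5 to 6, 5 to 6 and 2 to 5. The median difference ranged from -0.51 to -0.27, from -0.25 to -0.07 and from -0.34 to -0.24, with -0.27 and -0.07 without wild-type replicate 1.

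The replicate numbers did not pair the libraries: correlations of same-numbered deviations lay between -0.0717 and 0.02 over 9 pairs, and 1 library matched its own number best. With the replicate block, 30 nuclear members were called in knock-out, 35 in ΔTAD against wild-type and 36 in knock-out against ΔTAD, and 6, 5 and 4 mitochondrial genes.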

Other observations

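The citric acid cycle, which feeds electrons into the chain, was counted as a neighbouring pathway. Of its 13 genes, 1 rose and 5 fell in knock-out, 6 rose and 3 fell in ΔTAD macrophages, and 0 were higher and 10 lower in knock-out than in ΔTAD macrophages. The shares lower were 38.5%, 23.1% and 76.9%, against 22.4%, 23.4% and 19.1% of all genes. The share lower in ΔTAD against wild-type was near that of all genes, and 46.2% rose in ΔTAD macrophages, against 26.3%. The comparison of knock-out with ΔTAD uses the scaling on which the count of the nuclear members depended. Dlst and Dld, subunits of the 2-oxoglutarate dehydrogenase complex, both on chromosome 12, fell in knock-out (-0.70 and -0.57) and in ΔTAD macrophages (-0.45 and -0.35). Fh1, fumarase, and Idh3g, a subunit of isocitrate dehydrogenase, rose in ΔTAD macrophages (0.24, adjusted p = 2.24e-06, and 0.27, adjusted p = 1.15e-05, quasi-likelihood test of edgeR, Benjamini-Hochberg adjustment).

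Of 12 tested regulators of respiratory genes, 3 rose and 3 fell in knock-out, and 3 rose and 7 fell in ΔTAD macrophages. The knock-out shares, 25% in each direction, were near those of all genes (22.8% and 22.4%), as was the 25% that rose in ΔTAD macrophages (26.3%), while 58.3% fell there, against 23.4%. Myc, a transcription factor with wide effects on growth, held 39 to 60 counts in wild-type and 330 to 535 in edited libraries (log2 fold change 3.39, adjusted p = 3.13e-18, and 3.23, adjusted p = 8.59e-18). Yy1, on chromosome 12, fell in both (-0.52, adjusted p = 6.61e-12, and -0.37, adjusted p = 2.75e-09). Nrip1, a co-repressor of oxidative genes, fell in ΔTAD macrophages (-0.56, adjusted p = 3.63e-09) and stood at 0.04 in knock-out macrophages, and the difference between these was 0.60 (adjusted p = 4.11e-09). Ppard, on chromosome 17, rose in knock-out (0.67) and ΔTAD macrophages (0.20).

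The mitochondrial ribosomal RNAs followed the library of ΔTAD replicate 1. mt-Rnr1 stood at 3468 CPM there and between 76.48 and 288.9 CPM in libraries of all genotypes apart from it.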
